A study of Homo sapiens with 6 samples.

Results

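Complement components and regulators form a set of 35 genes, taken by gene name from a table of 79172, and all 35 were found there. They cover the recognition molecules of the lectin pathway, the proteases and substrates of the classical and lectin pathways, the alternative pathway, the terminal pathway that builds the membrane attack complex, and the soluble and membrane-bound regulators. RNA-seq counts of these genes were compared between 3 control and 3 HK1-overexpressing libraries of Huh7, an established cell line from a human hepatocellular carcinoma, a comparison that asks how overexpression of hexokinase 1, the enzyme that phosphorylates glucose on its entry into glycolysis, affects these cells. No drug, dose, time or cytokine is named for either group, and neither the vector that carried HK1, nor what the control cells received, nor whether the line is a clone is given in the sources used here. Whether the replicates were grown separately is not stated, so p-values measure only the spread between these libraries, which may be technical.

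Complement is a cascade of plasma proteins in which a recognition step activates proteases, the proteases cleave C4, C2 and C3, and the products mark a surface and lead to the assembly of C5 to C9 into a pore. The liver makes most of these proteins, and many of them belong to the acute phase response that interleukin 6 and related cytokines drive in hepatocytes. Cells protect themselves with CD46, CD55 and CD59 on the membrane and with soluble inhibitors such as C1 inhibitor, C4b-binding protein, factor I, clusterin and vitronectin.

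Libraries held 16771835 to 20823072 counts. HK1 had 13 to 15 counts in each control library and 9723 to 11101 in each HK1-overexpressing library, so the labels and the gene matched in all 6. Markers of hepatocytes were abundant, with summed levels of 19535 to 19959 CPM (counts scaled to library size with TMM factors) over 14 genes in controls and 15342 to 15722 in HK1-overexpressing cells. Of these 14 markers, 9 were called lower and 0 higher by the edgeR test used for all genes, beside 4.15% and 3.87% of all tested genes. None of the markers was at 0 in all libraries. The 9 became 6 without control replicate 3 or HK1-overexpressing replicate 2 or 3. The summed marker level differed by -21.1% between groups and the summed complement level by -21.4%. The part of the marker change in the complement results was not tested. Fewer cells of a type and less RNA per cell cannot be told apart in such bulk libraries. Markers of immune, endothelial and stellate cells were low beside those of hepatocytes, and the biliary marker KRT19 was not. The 7 immune genes ran from 0.470 to 0.669 CPM in total in control libraries and from 0.902 to 1.62 in the others, with CD163 and MS4A1 at 0 in all libraries. The 6 endothelial genes summed to 4.58 to 6.93 and 5.20 to 6.27 CPM, nearly all from PECAM1, with CDH5, KDR and CLEC4M at 0. The 6 genes of stellate cells and fibroblasts summed to 14.6 to 15.9 and 18.9 to 22.1 CPM, mostly from COL1A2, which was called higher (log2 0.58, edgeR adjusted p = 0.001). COL3A1, the only other tested gene of that list, went the other way and was not called (log2 -0.47, edgeR adjusted p = 0.218). The 4 biliary genes summed to 358.1 to 378.1 and 353.5 to 373.2 CPM, mostly from KRT19 (not called), while SOX9, a transcription factor of bile duct cells, was called lower (log2 -0.35, edgeR adjusted p = 0.00467). The part of these levels in the results was not tested.

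Huh7 cells expressed the complement set unevenly. Of the 35 genes, 22 had enough counts to be tested and 13 did not. Genes were set beside each other in CPM per kilobase of annotated exon. That length joins all annotated exons of a gene name, 1904 bases for VTN and 11577 for C3, not those of an expressed transcript. The order therefore depends on the annotation, and in CPM alone C3 (670.7) lay above VTN (127.7) in controls. Per kilobase, controls were led by CLU, which encodes clusterin, at 111.5 ± 5.37 (SD, n = 3). Next were VTN, vitronectin, at 67.1 ± 2.06, and C3, the protein on which all pathways converge, at 57.9 ± 2.52. CD46 followed at 18.9 ± 2.44, and then C5 at 11.3 ± 0.442, MASP1 at 10.7 ± 0.458 and SERPING1 at 10.5 ± 0.736, 3 neighbours whose ranges over libraries overlapped. CD59 at 8.73 ± 0.199, CFI at 6.71 ± 0.341, MBL2 at 5.04 ± 1.12 and C1S at 4.59 ± 0.254 came next. In HK1-overexpressing cells the same 4 genes led, in the same order, and CD59 came next at 9.92 ± 0.436, above C5 at 8.79 ± 0.264. C3 and CLU alone made up 54.6% to 57.8% of the summed complement CPM of control libraries and 49.6% to 50.4% of that of HK1-overexpressing libraries.

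**Figure D1:**
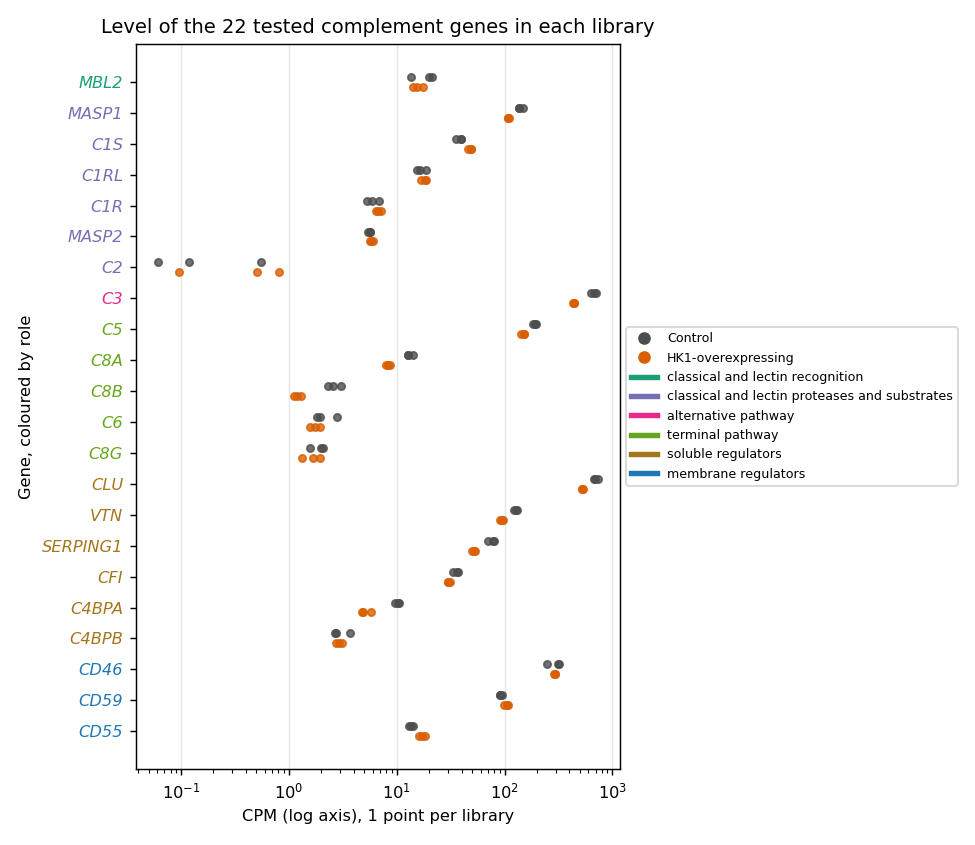
Level of the 22 tested complement genes, as CPM on a log axis, with 1 point for each library of the control (grey) and HK1-overexpressing (orange) groups and gene names coloured by role. The genes span from under 1 CPM for C2 to over 600 CPM in controls for C3 and CLU, and the orange points of C3, C8A, C8B and C4BPA lie left of all grey points.

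C3, C5, both C8 chains encoded on chromosome 1, and several soluble inhibitors were lower in HK1-overexpressing cells. Of the 22 tested genes, 10 fell, 2 rose and 10 were not called at an adjusted p of 0.05 (edgeR quasi-likelihood test, Benjamini-Hochberg adjustment over all 16734 tested genes). The 10 that fell are 45.5% of those tested, beside 4.15% of all tested genes called lower, and the 2 that rose are 9.09%, beside 3.87% called higher. The members were chosen with earlier results of these data known, so these shares describe the set and do not test it. All 10 falls were among the 19 tested genes for secreted proteins, of which 1 rose, and the 3 membrane regulators gave 1 rise and 0 falls, a difference that was not tested. Without CFI, whose call was lost in 11 of 14 alternatives, 9 falls remain. The median log2 fold change of the 22 was -0.22, against 0.0063 over all tested genes. The groups did not overlap in CPM for 13 of the 22 (59.1%), beside 27.8% of all tested genes. The largest falls were those of C8B (fold 0.458) and C4BPA (fold 0.510). None of the 22 passed a test against a fold of 1.5 (glmTreat), which 0.287% of all tested genes passed, and the 10 falls ranged from -1.13 to -0.23 on the log2 scale, with a median of -0.49. The summed complement level was 2461, 2483 and 2439 CPM in control replicates 1, 2 and 3 and 1929, 1937 and 1936 CPM in HK1-overexpressing replicates 1, 2 and 3. When TMM factors were left out and library totals used alone, 9 members were lower and 3 higher, while over all tested genes the split of 648 higher and 694 lower became 907 and 462.

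**Figure D2:**
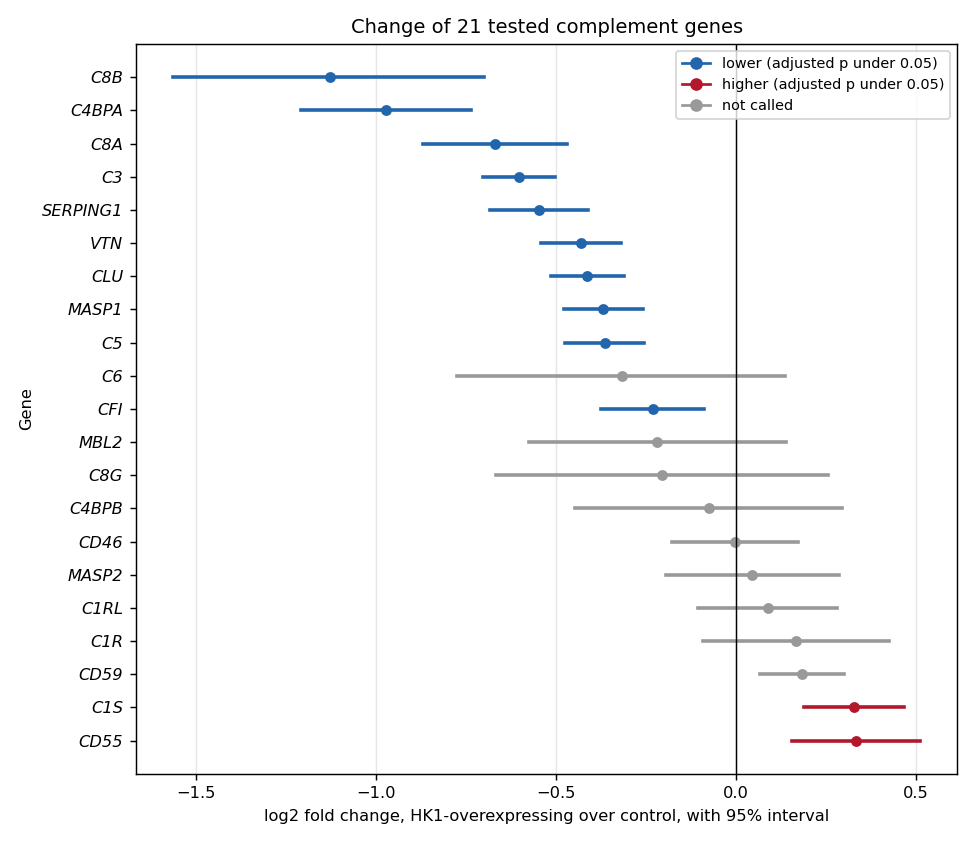
Log2 fold change of 21 tested complement genes, HK1-overexpressing over control, as a point with its 95% interval, in blue for genes called lower, red for genes called higher and grey for those not called. C2, whose interval from -0.99 to 2.69 is far wider, is not drawn. C8B and C4BPA lie farthest to the left, and C1S and CD55 farthest to the right.

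Among the recognition molecules, which bind sugars on microbes and damaged cells, only MBL2, mannose-binding lectin, was expressed at a level that could be tested. MBL2 was at 20.0, 13.6 and 21.1 CPM in control replicates 1, 2 and 3 and 17.4, 14.1 and 15.6 CPM in HK1-overexpressing replicates. The groups overlapped, control replicate 2 being the lowest of all 6, and MBL2 was not called (log2 -0.22, 95% interval -0.57 to 0.14, edgeR adjusted p = 0.480). Without control replicate 2, MBL2 was called lower (log2 -0.38, edgeR adjusted p = 0.00872). FCN3, ficolin 3, had 0 counts in every library. This allows a level of up to 0.144 to 0.179 CPM of the library total without TMM factors, depending on the library, counting error only. COLEC10 and COLEC11, the collectins that pair in plasma, had at most 12 counts in any library, and COLEC11 had none in any control library.

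The proteases that recognition molecules carry did not move together. MASP1, the gene of the lectin pathway protease that starts activation, fell. Counts were made per gene name, so different transcripts of MASP1 were not told apart. MASP1 was at 137.4, 146.9 and 135.7 CPM in control replicates 1, 2 and 3 and at 107.5, 109.1 and 108.7 CPM in HK1-overexpressing replicates (log2 -0.37, SE 0.0516, edgeR adjusted p = 0.00047). C1S, the classical pathway protease that cleaves C4 and C2, rose. Its levels were 39.1, 39.6 and 35.7 CPM in controls and 49.0, 48.9 and 45.8 CPM in HK1-overexpressing cells (log2 0.33, SE 0.0654, edgeR adjusted p = 0.00638). For both genes the groups were apart in all 6 libraries. The call of C1S was lost without HK1-overexpressing replicate 2 (edgeR adjusted p = 0.0552). C1R, which activates C1S and lies 9.18 kb from it on chromosome 12, was at 6.02 ± 0.798 and 6.75 ± 0.316 CPM (SD, n = 3) and was not called (log2 0.17, 95% interval -0.09 to 0.43, edgeR adjusted p = 0.461). C1RL, a C1R-like protease gene, and MASP2, the lectin pathway protease that cleaves C4 and C2, were not called either, with log2 values of 0.09 and 0.05 and intervals from -0.10 to 0.28 and from -0.19 to 0.29. The ratio of C1S to C1R counts overlapped between groups, at 5.19 to 7.48 in controls and 6.90 to 7.30 in HK1-overexpressing cells.

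The substrates of those proteases were barely counted. C2 passed the filter with 1 to 11 counts in control libraries and 2 to 17 in HK1-overexpressing libraries and was not called (log2 0.83, 95% interval -0.99 to 2.69, edgeR adjusted p = 0.607). C4A and C4B, near-identical copies on chromosome 6, had 0 to 4 counts in each library and were not tested. CFB, factor B of the alternative pathway, had a count in only 2 libraries, control replicate 3 and HK1-overexpressing replicate 2. These 4 genes lie together in the major histocompatibility complex, and the annotation places them on 3 to 6 further sequences as well as on chromosome 6. On chromosome 6, 42.8% of the exon bases of CFB and 33.7% of those of C2 are also exons of other gene names, the most of them of ENSG00000244255, which had 0 counts in all libraries. Fragments that map to several places, or to several genes, may not have been counted, so their low counts are not evidence of low expression. CFD, factor D, had 4 to 11 counts per library and was not tested.

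C3, cleaved by the convertases of every pathway, was the member that fell with the smallest p. It was at 673.7, 698.2 and 640.2 CPM in control replicates 1, 2 and 3 and at 435.9, 444.8 and 445.0 CPM in HK1-overexpressing replicates. Every HK1-overexpressing library lay below every control library, and the fold was 0.659 (log2 -0.60, SE 0.0469, edgeR adjusted p = 2.71e-06). C3 lies on chromosome 19 from 6677704 to 6730562 (hg38). There 14.5% of its exon bases are shared with other gene names, of which ENSG00000276980 had 0 counts in every library. The counts of the other, ENSG00000297005, were not examined. Of called genes, only CFI (29.4%) and VTN (17.3%) shared more. Their shared bases belong to ENSG00000285330 and ENSG00000273171, which had 0 counts in every library. Fragments in shared bases may not have been counted for any gene.

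In the terminal pathway 3 of 5 tested genes fell and 0 rose, beside 4.15% and 3.87% of all tested genes. C5, whose cleavage starts pore assembly, was at 197.4, 182.8 and 193.1 CPM in control replicates 1, 2 and 3 and at 151.2, 150.9 and 143.3 CPM in HK1-overexpressing replicates (log2 -0.36, SE 0.0511, edgeR adjusted p = 0.00047). C8A and C8B encode the alpha and beta chains of C8, which insert the growing complex into the membrane. C8A was at 14.3, 12.6 and 12.6 CPM in controls and 8.68, 8.24 and 8.02 CPM in HK1-overexpressing cells (log2 -0.67, SE 0.0935, edgeR adjusted p = 0.000456). C8B, at 2.57, 2.29 and 3.04 CPM in controls and 1.11, 1.30 and 1.19 CPM in HK1-overexpressing cells, had the largest fall of the set (log2 -1.13, SE 0.202, edgeR adjusted p = 0.00295). In all 3 genes the groups were apart. C8B rested on 39 to 51 counts per control library and 22 to 27 per HK1-overexpressing library, and its 95% interval ran from -1.56 to -0.70.

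The third chain of C8 gave no such call. C8G, which encodes the gamma chain, a lipocalin on another chromosome, was at 1.89 ± 0.261 and 1.64 ± 0.300 CPM (SD, n = 3) and was not called (log2 -0.21, 95% interval -0.67 to 0.26, edgeR adjusted p = 0.635). C8A and C8B lie 10.98 kb apart on chromosome 1, on opposite strands. The ratio of C8A to C8B counts was 5.57, 5.51 and 4.16 in control replicates 1, 2 and 3 and 7.82, 6.33 and 6.76 in HK1-overexpressing replicates, and that of C8A to C8G was 6.93, 7.96 and 6.30 in control libraries and 5.21, 4.28 and 6.04 with HK1 overexpressed. Neither ratio overlapped between groups. With 3 libraries each, the two-sided exact permutation p cannot go below 0.1, which was its value for both (adjusted p = 0.12 over the 6 ratios computed). The 6 ratios were not in the plan of tests. Several pair a called gene with one not called or called in the other direction, so their separation partly repeats those calls. C6, which joins C5b, was at 2.19 ± 0.527 and 1.75 ± 0.191 CPM with overlapping groups (log2 -0.32, 95% interval -0.77 to 0.14, edgeR adjusted p = 0.424). C7 had 1 to 5 counts per library and C9, the pore-forming subunit, 0 to 3, and neither was tested.

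Soluble regulators were lower in 5 of 6 tested genes, with 0 higher, beside 4.15% and 3.87% of all tested genes. The 5 include CFI, whose call was lost in 11 of 14 alternatives. C4BPA, the alpha chain of C4b-binding protein, which helps factor I to destroy C4b, was at 9.62, 10.3 and 10.6 CPM in control replicates 1, 2 and 3 and at 4.80, 4.92 and 5.79 CPM in HK1-overexpressing replicates. The groups were far apart, and the fold was 0.510 (log2 -0.97, SE 0.110, edgeR adjusted p = 7.78e-05). C4BPB, the beta chain of the same protein, was at 3.73, 2.76 and 2.68 CPM in controls and 2.93, 2.75 and 3.09 CPM in HK1-overexpressing cells. Those groups overlapped, and C4BPB was not called (log2 -0.07, 95% interval -0.45 to 0.30, edgeR adjusted p = 0.849). The ratio of C4BPA to C4BPB counts was 2.58, 3.72 and 3.95 in control libraries and 1.64, 1.79 and 1.88 with HK1 overexpressed. It did not overlap between groups, with a two-sided exact permutation p = 0.1, the smallest possible, and adjusted p = 0.12 over the 6 ratios.

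SERPING1, C1 inhibitor, which blocks C1r, C1s and the MASPs, was at 69.9, 77.7 and 80.0 CPM in control replicates 1, 2 and 3 and at 50.1, 52.6 and 52.9 CPM in HK1-overexpressing replicates (log2 -0.55, SE 0.0640, edgeR adjusted p = 0.000109). CLU, clusterin, which keeps the late complex soluble and also acts as a chaperone, was at 672.3, 737.9 and 691.4 CPM in controls and at 521.2, 527.4 and 530.2 CPM in HK1-overexpressing cells (log2 -0.41, SE 0.0473, edgeR adjusted p = 8.69e-05). VTN, vitronectin, another inhibitor of the late complex and an adhesion protein of plasma, was at 128.8, 130.9 and 123.3 CPM in controls and at 91.5, 97.2 and 95.7 CPM in HK1-overexpressing cells (log2 -0.43, SE 0.0524, edgeR adjusted p = 0.00015). In these 3 genes every HK1-overexpressing library lay below every control library. CFI, factor I, the protease that inactivates C3b and C4b, was at 33.6, 36.4 and 37.0 CPM in controls and at 29.9, 30.0 and 31.2 CPM in HK1-overexpressing cells. Its fall was the smallest of those called and close to the threshold (log2 -0.23, SE 0.0669, edgeR adjusted p = 0.0484), and the call was lost in 11 of 14 alternatives, among them DESeq2, the removal of control replicate 3 and that of any 1 HK1-overexpressing library (largest adjusted p = 0.205). The ratio of C3 to CFI counts was 17.3 to 20.1 in controls and 14.2 to 14.8 in HK1-overexpressing cells (two-sided exact permutation p = 0.1, adjusted p = 0.12). The factor H-related genes CFHR2, CFHR4 and CFHR5 had 0 to 5 counts in each library, and CFHR3 had 0 in all 6. They share sequence with each other, so low counts are again not evidence of low expression.

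**Figure D3:**
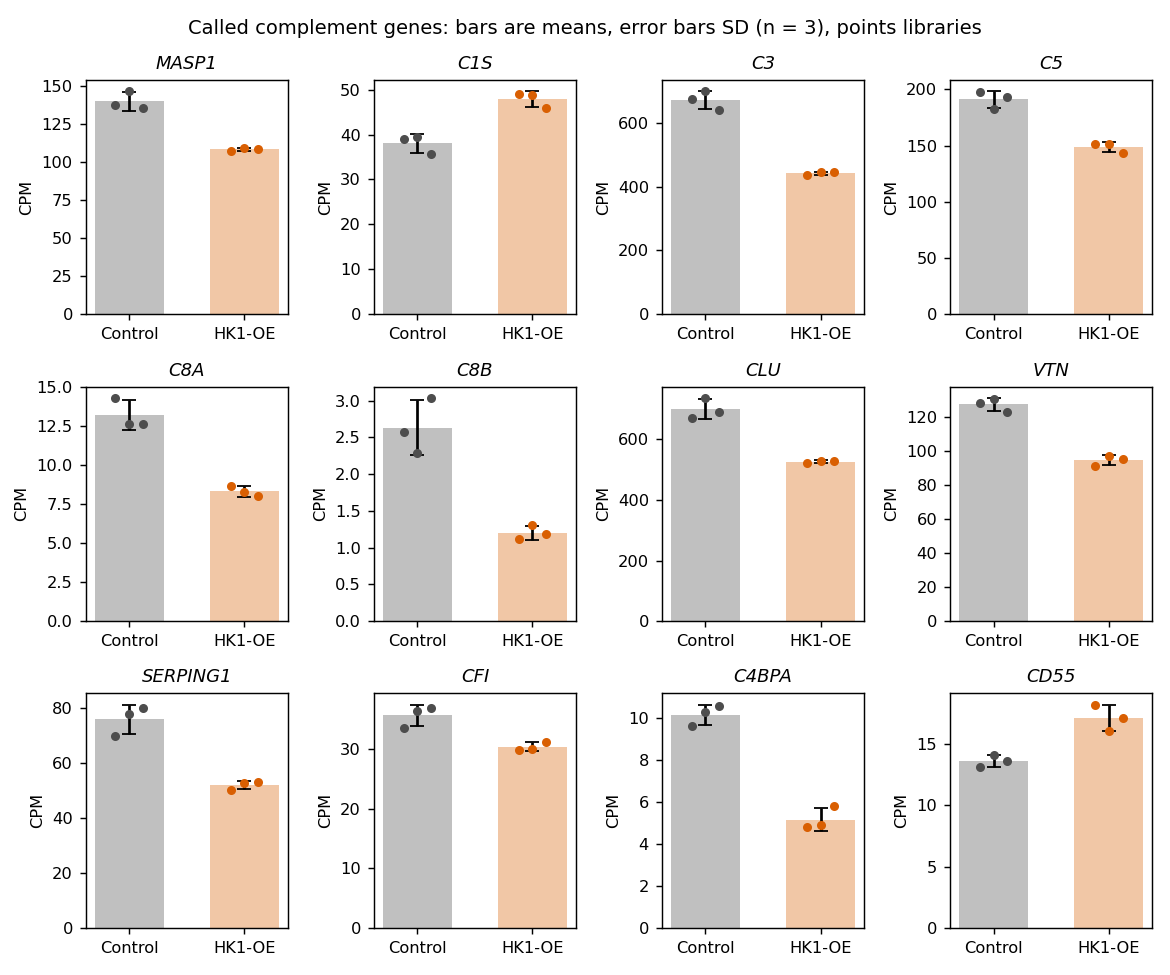
The 12 called complement genes in CPM, in control and HK1-overexpressing (HK1-OE) libraries, with bars for means, error bars for SD (n = 3 each) and 1 point per library, each axis starting at 0. The 10 genes called lower and C1S and CD55, called higher, each show 3 HK1-overexpressing points beyond the range of the control points.

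Of the 3 membrane regulators, 1 rose, beside 3.87% of all tested genes, and 2 were not called. CD55, decay-accelerating factor, which breaks up convertases, was at 13.1, 14.1 and 13.6 CPM in control replicates 1, 2 and 3 and at 18.2, 16.1 and 17.1 CPM in HK1-overexpressing replicates. All HK1-overexpressing libraries lay above all controls (log2 0.33, SE 0.0830, edgeR adjusted p = 0.0229). The call of CD55 was lost with DESeq2, when control replicate 3 was left out and when any 1 HK1-overexpressing library was (largest adjusted p = 0.128). CD59, which stops C9 from joining the pore, was at 90.9, 94.6 and 91.0 CPM in controls and at 108.1, 106.6 and 99.5 CPM in HK1-overexpressing cells. Its groups did not overlap either, but it fell just short of the threshold (log2 0.18, SE 0.0543, edgeR adjusted p = 0.0508) and passed it in 5 of 14 alternatives, among them library totals only and the removal of control replicate 1 or 2. CD46, the membrane cofactor for factor I and the most abundant of the 3, was at 320.3, 250.2 and 310.3 CPM in controls and at 295.4, 287.5 and 296.3 CPM in HK1-overexpressing cells. Control replicate 2 was the lowest and control replicate 1 the highest, so the groups overlapped, with an interval of the change from -0.18 to 0.17 (log2 -0.00305, edgeR adjusted p = 0.988).

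C4BPB, C4BPA, CD55 and CD46 are neighbours on the long arm of chromosome 1, in the cluster of regulators of complement activation. C4BPB spans 207088860 to 207099993 and C4BPA 207104233 to 207144972 (hg38), with 4.24 kb between them. CD55 begins 176.5 kb beyond C4BPA, and CD46 365.2 kb beyond CD55. Between the last of these pairs lie the receptor genes CR2 and CR1, with 0 counts in every library, and CR1L, with 1 count over all 6 libraries. Within the cluster 1 gene fell, 1 rose and 2 were not called, beside 4.15% of all tested genes called lower and 3.87% called higher. The ratio of CD55 to C4BPA counts was 1.34 ± 0.0459 in controls and 3.34 ± 0.425 with HK1 overexpressed (SD, n = 3 each). Its two-sided exact permutation p was 0.1 (adjusted p = 0.12 over the 6 ratios).

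**Figure D4:**
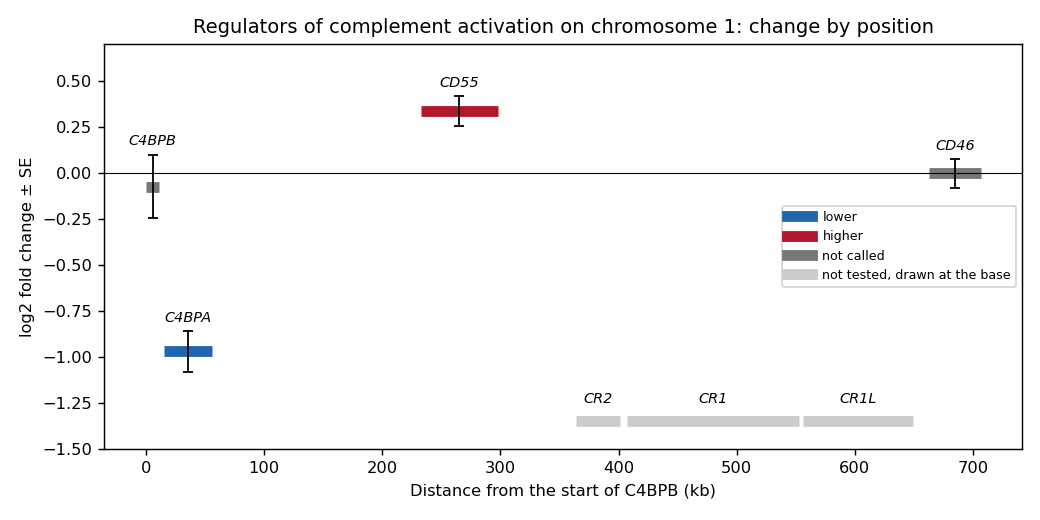
Log2 fold change, HK1-overexpressing over control, with its SE, for the regulators of complement activation by distance from the start of C4BPB in kb, each bar as long as its gene. C4BPA lies near -0.97 and its neighbour C4BPB near -0.07, CD55 lies at 0.33 and CD46 near 0, and CR2, CR1 and CR1L, which were not tested, are drawn at the base.

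Promoter windows of RefSeq (GRCh38.p14, 250 bases before to 50 after the start) were found for 22 of the 35 genes and searched on both strands for letters of 5 motifs. For 9 genes with more than 1 window, the one listed first by RefSeq's table was used. The letters TTGCNNAA of C/EBP were found in 5 of 22 windows and in 10.5% of all 35116 windows, TTCNNNGAA of STAT in 7 and in 7.66%, TATAAA in 2 and in 11.5%, and CAAAGTCCA of HNF4 and GGGACTTTC of NF-kB in 0, against 0.384% and 0.387% of all. These matches describe letters and are not binding sites. Of the called genes with a window, only VTN had a match. All other matches were in genes not called or not tested, such as MBL2. Part of these windows is annotated exon of the same gene. Of the 250 bases before the start, this held for 250 in C5, 243 in MASP1, 159 in CD55, 151 in CFI and 125 in C8B. It held for 29 in C8A and 0 in C4BPA and VTN. The lack of matches in called genes is therefore not a result about their promoters. C3, CLU, SERPING1 and C1S had no window. A link between these letters and the changes was not tested. The 250 bases before the start are shown for C4BPA, which fell, for its neighbour C4BPB, which was not called, and for VTN, which fell and had 3 matches. They lie at chr1:207103983-207104232 (plus strand), chr1:207088610-207088859 (plus strand) and chr17:28370308-28370557 (minus strand), each 5′ to 3′, with matched letters in capitals.
C4BPA: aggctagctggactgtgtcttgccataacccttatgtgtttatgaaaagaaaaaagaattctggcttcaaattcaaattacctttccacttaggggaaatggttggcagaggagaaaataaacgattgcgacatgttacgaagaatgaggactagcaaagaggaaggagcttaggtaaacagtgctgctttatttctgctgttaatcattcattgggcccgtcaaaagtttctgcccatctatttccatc
C4BPB: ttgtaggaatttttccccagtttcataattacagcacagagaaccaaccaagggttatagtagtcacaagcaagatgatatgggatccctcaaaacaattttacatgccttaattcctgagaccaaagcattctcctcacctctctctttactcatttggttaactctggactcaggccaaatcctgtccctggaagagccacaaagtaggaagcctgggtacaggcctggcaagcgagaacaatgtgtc
VTN: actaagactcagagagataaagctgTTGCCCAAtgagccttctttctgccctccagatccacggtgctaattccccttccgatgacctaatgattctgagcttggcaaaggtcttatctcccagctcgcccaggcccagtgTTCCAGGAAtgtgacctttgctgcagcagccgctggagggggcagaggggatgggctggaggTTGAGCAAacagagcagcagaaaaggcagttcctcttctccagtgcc
C4BPA and C4BPB have no match to these 5 motifs in these bases. In VTN the C/EBP letters begin 225 and 47 bases before the start and the STAT letters 109 bases before it.

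Other genes of the pathway, receptors, pattern recognition proteins and inactivators outside the 35, numbered 26, of which 9 could be tested. Of these 9, 2 rose, 1 fell and 6 were not called, beside 3.87% of all tested genes called higher and 4.15% called lower. Of the untested genes 10 had 0 counts in every library. The changes split the subunits of carboxypeptidase N, the plasma enzyme that inactivates C3a and C5a. CPN1, its catalytic subunit, was at 5.34, 5.82 and 5.72 CPM in control replicates 1, 2 and 3 and at 2.52, 3.42 and 4.13 CPM in HK1-overexpressing replicates (log2 -0.74, SE 0.163, edgeR adjusted p = 0.0118). CPN2, its regulatory subunit, was at 7.46, 7.58 and 8.63 CPM in controls and at 11.2, 10.8 and 10.6 CPM in HK1-overexpressing cells (log2 0.46, SE 0.0966, edgeR adjusted p = 0.00842). Neither overlapped between groups. The call of CPN1 was lost without control replicate 3 and without HK1-overexpressing replicate 1 or 2 (largest adjusted p = 0.0638). COLEC12, a scavenger receptor with a collectin domain, rose from 4.32 ± 0.167 to 6.08 ± 0.278 CPM (SD, n = 3 each, log2 0.49, edgeR adjusted p = 0.0189), a call lost with DESeq2, on removal of control replicate 3 and on removal of any 1 HK1-overexpressing library. The chains of C1q, C1QA, C1QB and C1QC, had 0 counts in every library.

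Of 29 tested genes for cytokine signalling and liver transcription factors, 3 rose and 4 fell, beside 3.87% and 4.15% of all tested genes. These counts became 6 and 2 with library totals only. NR1H4, a nuclear receptor for bile acids, was at 48.9 ± 1.70 CPM in controls and 32.1 ± 1.11 CPM with HK1 overexpressed (SD, n = 3 each), and the groups did not overlap (log2 -0.61, SE 0.0631, edgeR adjusted p = 3.26e-05). Among transcription factors that open liver chromatin, FOXA1 (log2 -0.25, edgeR adjusted p = 0.0358) and FOXA2 fell (log2 -0.25, edgeR adjusted p = 0.0141). JAK1, a kinase of interleukin 6 receptors, CEBPB, a transcription factor of the acute phase, and OSMR, the oncostatin M receptor, rose by 0.31, 0.30 and 0.21 on the log2 scale (edgeR adjusted p = 0.00828, 0.0132 and 0.0361). Of these 6 genes, NR1H4 kept its call in all 14 alternatives. The call of FOXA1 was lost in 7 of them, that of OSMR in 6, of CEBPB in 4, of FOXA2 in 3 and of JAK1 in 2. Removal of control replicate 1 left 7 rises and 2 falls, that of control replicate 2 left 5 and 6, and that of control replicate 3 left 0 and 2. Removal of any 1 HK1-overexpressing library left 1 fall, with 0 rises for replicate 3 and 1 for the others.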

How the data were processed

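The authors deposited raw counts per gene name for 6 libraries, made with featureCounts 1.5.3 in paired mode over exons of GENCODE release 47, per the file headers. Trim Galore, Subread and the build hg38 are named per the submitters' processing notes, and RNA was extracted with TRIZOL for a stranded mRNA kit per the labels' protocols. The recorded command sets no strand, multi-mapping or multi-overlap option, so fragments of a gene and an overlapping antisense gene cannot be told apart. Columns were matched to samples by title and tested to hold whole numbers, and no other sample columns were present.

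Counts were normalized by TMM after the filterByExpr rule. CPM were computed from the deposited counts over the library's total of genes that passed the filter, times its factor. They were divided by exon length on the main chromosome where genes are compared. The robust quasi-likelihood test of edgeR 4.0.16 (R 4.3.3) compared the groups with no other term, and p-values were adjusted by Benjamini-Hochberg over all tested genes and called at 0.05. SE is the unshrunken coefficient over the square root of the F statistic. Limits for a count of 0 are 3 counts over the total of all genes, without a TMM factor. Like other counting limits, they cover counting error only. The 14 alternatives used other size factors, filters, DESeq2 1.42.0, limma 3.58.1 with voom, no robust estimation, a replicate block, and the removal of each library. The test was tried on simulated data, where it missed many small changes and made more false calls than its nominal rate, which bears on calls near the threshold and on genes not called. Within groups, counts differed by more than sampling noise (chi-square per degree of freedom 4.54 to 9.94 in controls, 1.51 to 2.12 in HK1-overexpressing cells), so no library was merged.

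The members and lists were chosen with earlier results of these data known. Named genes were all 35 members, HK1, cell type markers and, from each other list, up to 4 called genes of smallest p. FOXA1 and OSMR among the signalling and transcription factor genes, CR1, CR2, CR1L and the C1q chains fall outside that rule and were named after their values were seen. Protein sequences were not used here, and some withheld items are not reported here.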

Additional observations from a re-analysis of the deposited data

How the results depend on the processing

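Of 22 tested complement genes, the falls of C3, C5, MASP1, C8A, C8B, C4BPA, SERPING1, CLU and VTN were kept in all alternatives in which they were tested, which for C8B excludes a mean CPM of at least 5. Over members and alternatives, 279 values stayed on the same side of the threshold, 17 lost a call (CFI, CD55 and C1S) and 6 gained one (CD59 and MBL2). In 0 did a called change reverse. C4BPB and CD46, never called, did change sign, with log2 values from -0.16 to 0.11 and from -0.10 to 0.07. Members called lower numbered 8 to 10 under other settings and 9 to 11 with 1 library left out, and 0 passed the fold of 1.5 in any setting where it was run. Members called higher numbered 1 with DESeq2 and 0 to 3 with 1 library left out. The median member change ranged from -0.33 to -0.16 with 1 library left out, was -0.19 with library totals only, and was -0.35 without a filter, where more members of few counts entered. The summed level changed by -19.3% with library totals only and by -21.8% to -20.8% with 1 library left out.

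Over all tested genes, leaving out 1 library gave 286 to 1172 higher and 250 to 1085 lower, the fewest without HK1-overexpressing replicate 2 and the most without control replicate 1, and library totals only gave 462 lower. Of other complement genes, 1 was higher with DESeq2 and 1 to 3 with 1 library left out. With 1 library left out 0 to 2 were lower. When a mean CPM of 5 or more was required 0 were lower, as CPN1 was then not tested. In the signalling and transcription factor list, 6 were higher with library totals only and 5 without a filter, 2 were lower with library totals only and 2 with the replicate block, and leaving out 1 library gave 0 to 7 higher and 1 to 6 lower. Hepatocyte markers called lower numbered 6 to 12 with 1 library left out. The causes were not tested.

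Same-numbered libraries did not deviate together (correlations of -0.00927, 0.0514 and -0.0513 across genes), and not every library correlated best with its own number, so the numbers were not taken as pairs. The replicate block gave 563 higher and 511 lower over all genes, and 2 higher and 9 lower among complement members. Genes of few counts, such as C8B, C6 and C8G, are limited by depth. Counts of genes with near-identical copies are limited by the counting.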
